A study of Mus musculus with 4 samples.

Results

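The genes described here are the integrin subunits, the laminin chains, and the matrix and cytoplasmic proteins that connect them, taken by gene name from a deposited expression table. The set comprises 49 of the 46072 genes in that table: 18 integrin alpha subunits, 8 integrin beta subunits, 11 laminin chains, 4 matrix linkers (Nid1, Nid2, Hspg2 and Agrn), the matricellular genes Sparc and Sparcl1 together with Fn1, and 5 cytoplasmic adaptors (Tln1, Tln2, Vcl, Ilk and Fermt2). No measured value entered the choice. The data are 4 poly(A) RNA-seq libraries of wild-type, untreated mouse brain vessels, labelled as endothelial cells that were dissected by laser, and the series title names perfusion fixation and immunolabelling. All 4 belong to 1 group (replicates 1 to 4), so each comparison is with a fixed level or with other genes of the same library. The labels give no age, sex or strain and do not state that the libraries came from separate animals, so every p-value covers only the spread between these libraries, which may be technical.

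Integrins are cell surface receptors made of an alpha and a beta subunit, and the pairing of subunits sets which ligand is bound. Laminins are trimers of an alpha, a beta and a gamma chain that polymerise into the sheet of the basement membrane, which nidogens, perlecan and agrin join to collagen IV and to cell surfaces. Inside the cell, talin and kindlin bind the beta tail and activate the receptor, while integrin-linked kinase and vinculin tie it to actin. In brain vessels this layer lies between endothelium, mural cells and the endfeet of astrocytes, and each of these cell types contributes to it.

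Integrins and laminins were measured at low to moderate level, whereas the SPARC family was among the most abundant transcripts of the table. Values are the authors' FPKM, that is mapped fragments scaled to transcript length and library size. Comparison between genes rests on that scaling, and a difference between libraries that moved with transcript length is described below. Of 49 members, Itgax alone was listed at 0 in all 4 libraries, and the other 48 were tested against 1 FPKM on the log2(FPKM + 1) scale (limma, Benjamini-Hochberg adjustment over 25206 genes, threshold 0.05). Of these 48, 22 were called above that level and 18 below, while 8 could not be placed. Among all genes tested 47.7% lay above and 40.1% below, against 45.8% and 37.5% of the members. The shares were thus near each other at this level and scale, with genes at 0 in every library left out. The median of the members' mean levels was 1.55 FPKM, beside 1.45 FPKM over all genes tested. The nearness of the shares depended on that filter. When genes at 0 were kept, 42.9% of 49 members lay above and 28.6% below, beside 26.1% and 65.4% of all 46072 genes. When genes averaging under 0.1 FPKM were dropped, 51.1% of members lay above and 33.3% below, beside 61.1% and 25.9% of genes. With each library rescaled to a sum of 1000000, which moves the median of all genes by 0.73 on that scale, 30 members (62.5%) lay above and 10 (20.8%) below, beside 54.3% and 29.7% of all genes tested. Sparcl1 ranked 65 and Sparc 97 among all genes by mean, and together they held 86.9% ± 1.37 of the summed FPKM of the members (SD, n = 4). The 26 integrin genes held 0.0159% ± 0.00166 of all summed FPKM and the 11 laminin genes 0.003% ± 0.000671.

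**Figure D1:**
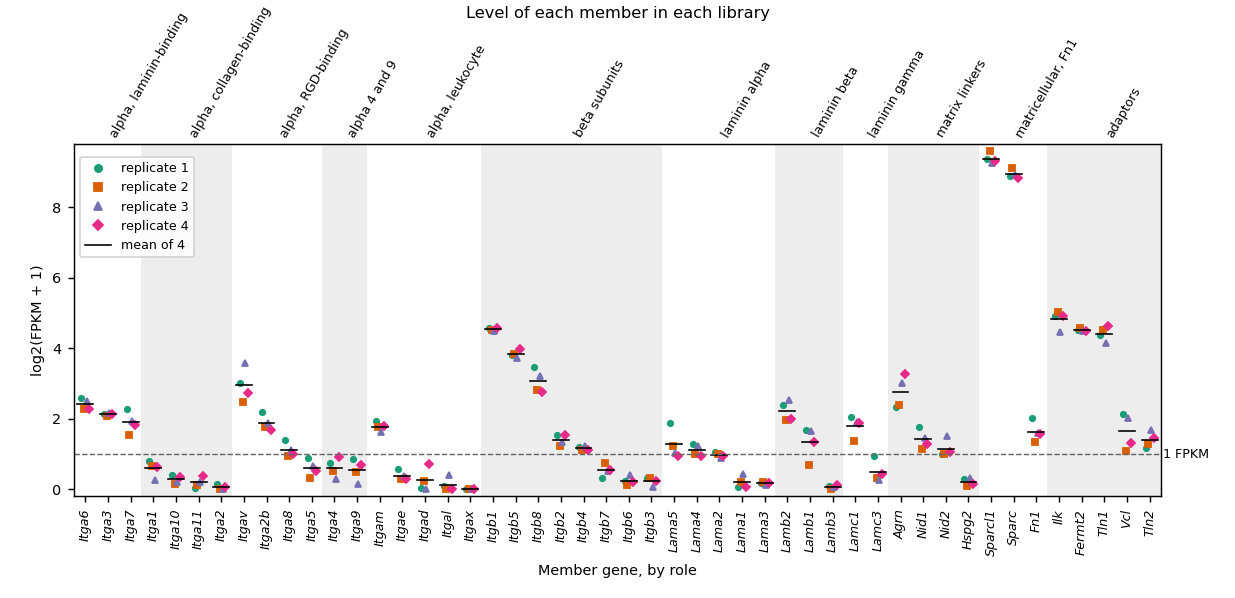
Level of each member reported here as log2(FPKM + 1), grouped by role and ordered by mean within role, with 1 point for each library, a bar for the mean of 4 and a dashed line at 1 FPKM. Sparc and Sparcl1 stand far above the other members, Itgb1, Fermt2, Tln1 and Ilk lie between 16.6 and 31.5 FPKM, and most alpha subunits lie under the line.

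The label was checked against cell type markers in the same libraries. Endothelial markers were present, with Ly6c1 at 68.2, Egfl7 at 40.3, Cldn5 at 19.0 and Pecam1 at 4.31 FPKM. Of the 17 pan-endothelial genes, 14 were called above 1 FPKM and 1 below, beside 47.7% and 40.1% of all genes tested. Cdh5 (vascular endothelial cadherin) and Erg were the lowest of this list, at 0.878 and 0.368 FPKM. The pan-endothelial list of 17 genes had a median of 4.49 FPKM. Markers of several other cell types were higher: the median was 101 FPKM for 10 neuronal, 144 for 8 oligodendrocyte, 97.4 for 9 astrocyte, 20.5 for 9 microglial genes, and 71.2 for 8 choroid plexus genes. The fibroblast median of 4.80 was near the endothelial one, and the pericyte, smooth muscle and platelet medians of 3.03, 3.40 and 1.19 were below it. The RNA of a member can therefore have come from any of these cells. Fewer cells of a type and less RNA per cell cannot be told apart, and read depth is unknown.

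The promoter sequences of 4 integrin genes are shown because they pair the most abundant beta subunits (Itgb1 and Itgb5) with neighbouring leukocyte subunits, of which Itgam was measured and Itgax was listed at 0. Each run is the 250 bases before the RefSeq start (GRCm38.p6), on the gene's strand, which is + for all 4: chr8:128685404-128685653 for Itgb1, chr16:33829415-33829664 for Itgb5, chr7:128062390-128062639 for Itgam and chr7:128129300-128129549 for Itgax. Capitals mark the dinucleotide CG, which reads the same on both strands.
Itgb1: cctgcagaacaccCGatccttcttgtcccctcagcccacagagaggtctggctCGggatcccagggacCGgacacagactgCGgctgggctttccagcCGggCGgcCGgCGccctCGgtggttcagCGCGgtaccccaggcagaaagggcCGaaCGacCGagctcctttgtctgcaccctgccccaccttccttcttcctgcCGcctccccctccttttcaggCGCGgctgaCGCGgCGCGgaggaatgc
Itgb5: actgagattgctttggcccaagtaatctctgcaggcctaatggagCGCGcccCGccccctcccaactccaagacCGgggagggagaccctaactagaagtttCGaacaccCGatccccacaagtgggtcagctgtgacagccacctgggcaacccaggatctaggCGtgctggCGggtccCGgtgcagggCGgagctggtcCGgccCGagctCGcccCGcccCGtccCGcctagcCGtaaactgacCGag
Itgam: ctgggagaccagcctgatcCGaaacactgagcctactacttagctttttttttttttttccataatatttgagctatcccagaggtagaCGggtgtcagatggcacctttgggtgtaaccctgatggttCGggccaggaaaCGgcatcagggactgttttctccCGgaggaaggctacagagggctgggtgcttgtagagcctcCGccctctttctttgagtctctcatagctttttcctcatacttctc
Itgax: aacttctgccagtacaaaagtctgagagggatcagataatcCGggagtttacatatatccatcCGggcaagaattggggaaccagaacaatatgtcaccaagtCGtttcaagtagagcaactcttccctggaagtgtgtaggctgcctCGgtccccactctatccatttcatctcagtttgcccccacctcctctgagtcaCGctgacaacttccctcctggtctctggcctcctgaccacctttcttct

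The Itgb1 window held 21 CG, a number reached or passed by 16.3% of all 32817 promoter windows of that length, and the Itgb5 window held 18, reached or passed by 21.7%. The Itgam window held 6 and the Itgax window 5, which 50.3% and 55.6% of windows reach or pass. Itgam and Itgax thus resembled each other in CG number while their RNA measured 2.44 and 0 FPKM. The value of Itgam is uncertain, as 68.7% of its exon bases are shared with Gm49368 on the same strand. RefSeq promoters were found for 31 of 49 members, in 36 windows, with a median of 11.5 CG against 6 over all windows. Other members went both ways. The Fermt2 window held 31 CG at 21.9 FPKM and the Itgb7 window 5 at 0.457. Against that order, the Hspg2 window held 20 at 0.159 FPKM and the Lamb2 window 3 at 3.75. A link between CG number and level was not tested. These counts describe the letters of the windows only.

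Among the beta subunits, Itgb1, the shared partner of most alpha subunits, was highest. It measured 22.8, 21.9, 21.6 and 22.7 FPKM in replicates 1 to 4 (ENSMUSG00000025809, chromosome 8, 128685654 to 128733200, GRCm38), a mean of 22.2 ± 0.595 (SD, n = 4) with a log2 difference of 3.54 ± 0.04 (SE) from 1 FPKM (limma, adjusted p = 1.26e-07). Its 4 values were nearly level, with a coefficient of variation of 2.67%, and 0.849% of the 3653 genes within 2-fold of its mean varied less. Itgb5, which joins the alpha v subunit to bind vitronectin, measured 12.98, 13.3, 12.1 and 14.6 FPKM. Itgb1 exceeded it in every library, by 0.71 ± 0.08 (SD) on the log2(FPKM + 1) scale. Itgb8, the alpha v partner known on astrocytes for activating latent TGF-beta, measured 10.1, 5.97, 8.29 and 5.79 FPKM, and it was higher in replicates 1 and 3.

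The other 5 beta subunits were far lower. Itgb2, the leukocyte beta subunit, measured 1.93, 1.32, 1.55 and 1.88 FPKM, and its call above 1 FPKM (adjusted p = 0.0229) was lost without replicate 1, 3 or 4 (adjusted p = 0.0817, 0.0553 and 0.0905). Itgb4, the laminin-binding partner of Itga6 in hemidesmosomes, measured 1.31, 1.17, 1.35 and 1.16 FPKM, and the test placed it on neither side of 1 FPKM (limma, adjusted p = 0.169). Itgb7, a lymphocyte homing subunit, had a mean of 0.457 ± 0.171 FPKM, and Itgb6, an epithelial subunit, 0.190 ± 0.0993. Itgb3, the platelet and vitronectin receptor subunit, was lowest with 0.252, 0.242, 0.0393 and 0.183 FPKM, and Itgb5 exceeded it by 3.59 ± 0.11 on the log2(FPKM + 1) scale. In the order Itgb1, Itgb5, Itgb8, Itgb2, Itgb4, Itgb7, Itgb6, Itgb3, each neighbour was higher than the next in 4 of 4 libraries by more than the SD of the difference, except for Itgb6 and Itgb3, whose levels overlapped.

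The laminin-binding alpha subunits Itga6, Itga3 and Itga7 all lay above 1 FPKM. Itga6, a laminin receptor of brain endothelium, measured 4.98, 3.86, 4.70 and 3.88 FPKM, a mean of 4.35 ± 0.574 (SD, n = 4). Itga3 measured 3.41, 3.20, 3.50 and 3.36 FPKM, and 0.428% of the 4911 genes within 2-fold of its mean varied less between libraries. Itga6 was higher than Itga3 in 4 of 4 libraries, by 0.29 ± 0.13 (SD) on the log2(FPKM + 1) scale. Itga7, a laminin receptor of muscle, measured 3.87, 1.91, 2.85 and 2.52 FPKM. It overlapped Itga3 in its range, with Itga3 higher in 3 of 4 libraries.

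All 4 collagen-binding alpha subunits lay below 1 FPKM, whereas the 3 laminin-binding ones lay above it. Itga1, the highest of them, measured 0.754, 0.574, 0.210 and 0.557 FPKM, and Itga6 exceeded it by 1.82 ± 0.28 (SD, n = 4) on the log2(FPKM + 1) scale, with every library in that order. Itga10, a collagen receptor of cartilage, and Itga11, one of fibroblasts, had means of 0.219 and 0.148 FPKM, and 33.5% of the exon bases of Itga10 are shared with Gm42957 on the same strand (mean 0.0338 FPKM), so its value is uncertain. Itga2, the platelet and epithelial collagen receptor, was lowest at 0.107, 0, 0 and 0.0476 FPKM. With libraries rescaled to a sum of 1000000, Itga1 changed to the other side of 1 FPKM with a log2 difference of 0.06 that did not pass (limma, adjusted p = 0.776), and its call below 1 FPKM (adjusted p = 0.0144) was also lost at pseudocounts of 0.1 and 0.01 (adjusted p = 0.0501 and 0.0678).

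Itgav, the alpha v subunit that pairs with several beta subunits to bind the RGD sequence of matrix proteins, was the highest alpha subunit. It measured 7.05, 4.59, 10.9 and 5.64 FPKM (ENSMUSG00000027087, chromosome 2, 83724397 to 83806916), a mean of 7.05 ± 2.76 (SD, n = 4). Replicate 3 was highest by far, and its coefficient of variation of 39.2% exceeded that of 96.0% of genes within 2-fold of its mean. Itga5, the fibronectin receptor, measured 0.837, 0.250, 0.588 and 0.437 FPKM, 2.35 ± 0.37 below Itgav on the log2(FPKM + 1) scale, with no overlap. Its call below 1 FPKM (limma, adjusted p = 0.0162) was lost without replicate 2 or 4 (adjusted p = 0.0554 and 0.0603), and under the rescaling its difference was 0.06 (adjusted p = 0.766). Itga8, an RGD receptor of smooth muscle and mesenchyme, measured 1.63, 0.909, 1.16 and 1.005 FPKM and passed in neither direction (adjusted p = 0.429).

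Itga2b, the platelet subunit known to pair with Itgb3, measured 3.60, 2.41, 2.68 and 2.22 FPKM and lay above 1 FPKM (limma, log2 difference 0.88, adjusted p = 0.00157). Its partner Itgb3 lay below 1 FPKM, and Itga2b was 9.95 to 68.1 times higher within a library. The other platelet markers measured 4.31 ± 1.195 (Pf4), 1.10 ± 0.407 (Ppbp), 0.887 ± 0.212 (Gp1bb) and 0.269 ± 0.215 FPKM (Gp9) (SD, n = 4). The platelet genes were thus not at like levels. Which cells the Itga2b RNA came from was not tested.

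Itga4 and Itga9, which bind VCAM-1, fibronectin or tenascin, lay below 1 FPKM. Itga4 measured 0.670, 0.428, 0.228 and 0.883 FPKM, and its call (limma, adjusted p = 0.0277) was lost without replicate 2 or 3 (adjusted p = 0.091 and 0.0889) and under the rescaling (log2 difference 0.08, adjusted p = 0.699). Itga9 measured 0.830, 0.406, 0.114 and 0.610 FPKM, and its call (adjusted p = 0.0218) was also lost without replicate 2 or 3 (adjusted p = 0.0699 and 0.0556). Replicate 3 was the lowest library for both genes.

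Of the 5 leukocyte alpha subunits, Itgam, the complement receptor subunit of microglia and myeloid cells, alone lay above 1 FPKM. It measured 2.83, 2.38, 2.10 and 2.44 FPKM, and its partner Itgb2 was lower in each library, at a ratio of 1.48 ± 0.225 (SD, n = 4). Itgam shares 68.7% of its exon bases with the annotated gene Gm49368 on the same strand, so its value is uncertain. Itgal, the lymphocyte subunit of LFA-1, measured 0.0723, 0, 0.318 and 0 FPKM, and Itgam exceeded it by 1.65 ± 0.28 on the log2(FPKM + 1) scale, with every library in that order. Itgad measured 0.0298, 0.182, 0 and 0.646 FPKM. Itgae, the subunit of tissue-resident T cells, had a mean of 0.301 ± 0.121 FPKM. Microglial markers were measured beside these genes, with C1qb at 67.0 FPKM, and their part in the level of Itgam was not tested.

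Ordered by mean, the alpha subunits ran Itgav, Itga6, Itga3, Itga7, Itga2b, Itgam, Itga8, Itga4, Itga5, Itga1, Itga9, Itgae, Itga10, Itgad, Itga11, Itgal, Itga2 and Itgax. Only 4 of the 17 neighbouring pairs differed in 4 of 4 libraries by more than their SD: Itgav and Itga6, Itga6 and Itga3, Itgam and Itga8, and Itga8 and Itga4. From Itga4 to Itgax no neighbouring pair met this rule. The 12 alpha subunits known to pair with the beta 1 subunit summed to 24.5, 16.3, 24.6 and 19.5 FPKM, or 0.955 ± 0.184 times Itgb1 (SD, n = 4), above it in replicates 1 and 3 and below it in 2 and 4. For the alpha v pairs, Itgav was 0.545 ± 0.254 times Itgb5 and 0.938 ± 0.278 times Itgb8, and it was 32.9 to 46.9 times Itgb6. These are RNA ratios per length and do not measure receptor protein.

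**Figure D2:**
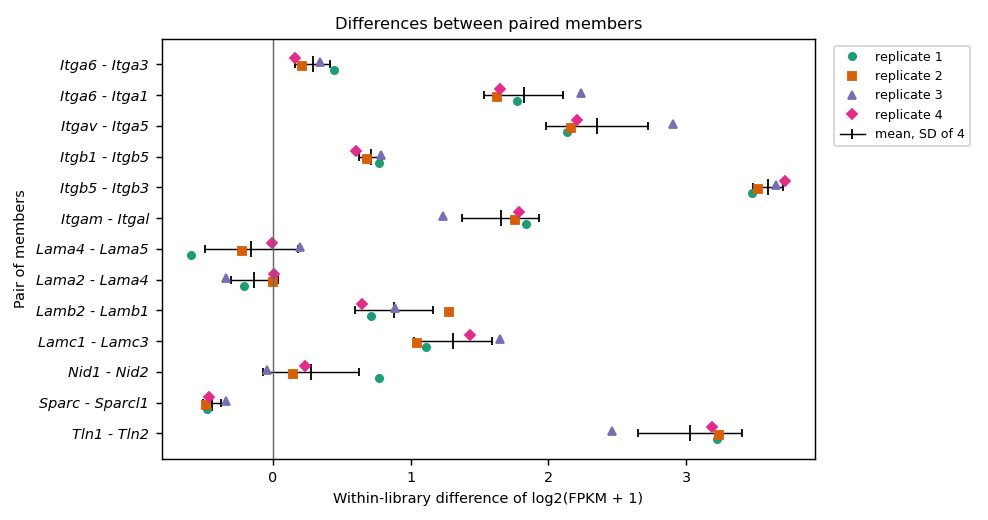
Within-library difference of log2(FPKM + 1) for the 13 pairs of members compared, 1 point for each library, with the mean and SD of 4. In 10 pairs all 4 libraries lie on the same side of 0, while Lama4 and Lama5, Lama2 and Lama4, and Nid1 and Nid2 lie on both sides.

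The laminin chains lay mostly near or below 1 FPKM, and Lamb2 and Lamc1 were the highest. Of 11 chains, 2 were called above 1 FPKM and 4 below, beside 47.7% and 40.1% of all genes tested. The other 5 chains could not be placed. Lamb2, a beta chain of vessel and synaptic basement membranes, measured 4.27, 2.94, 4.78 and 3.01 FPKM (ENSMUSG00000052911, chromosome 9, 108479736 to 108490530; limma, log2 difference 1.23 ± 0.14 SE, adjusted p = 0.00048). Lamb1, the other widely used beta chain, measured 2.22, 0.621, 2.13 and 1.55 FPKM. Lamb2 exceeded it in 4 of 4 libraries by 0.88 ± 0.28 (SD), and replicate 2 was lowest for each. Lamb1 itself passed in neither direction (adjusted p = 0.165) but lay above 1 FPKM without replicate 2 (log2 difference 0.56, adjusted p = 0.0243). Lamb3, the epithelial beta chain, measured 0.0700, 0, 0.0483 and 0.0901 FPKM.

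Lamc1, the gamma chain of most laminins, measured 3.17, 1.58, 2.78 and 2.65 FPKM, and Lamc3 0.934, 0.250, 0.209 and 0.353. Lamc1 was higher in 4 of 4 libraries, by 1.31 ± 0.28 (SD, n = 4) on the log2(FPKM + 1) scale, with no overlap. The call of Lamc3 below 1 FPKM (limma, adjusted p = 0.0142) was lost without replicate 2 or 3 (adjusted p = 0.0555 and 0.0524).

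Of the alpha chains, Lama4 and Lama5 are those of endothelial basement membrane, and Lama2 is that of the astrocyte and mural layer. Lama5 measured 2.65, 1.35, 1.052 and 0.925 FPKM, with replicate 1 well above the other libraries. Lama4 measured 1.42, 1.007, 1.35 and 0.914 FPKM and Lama2 1.09, 1.009, 0.861 and 0.921. All 3 passed in neither direction against 1 FPKM (limma, adjusted p = 0.23, 0.39 and 0.816), and under the rescaling all 3 lay above it (log2 differences 0.9996, 0.80 and 0.62, adjusted p = 0.0139, 0.00668 and 0.0106).

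Neighbours in the order of these 3 alpha chains were not separated. Lama4 differed from Lama5 by -0.16 ± 0.34 (SD, n = 4) and Lama2 from Lama4 by -0.14 ± 0.17 on the log2(FPKM + 1) scale, with exact sign-flip p-values of 0.375 and 0.5. Lama1, a chain of fetal and meningeal membranes, measured 0.0456, 0.154, 0.341 and 0.0538 FPKM. Lama3, the epithelial chain, was lowest at 0.138, 0.148, 0.0781 and 0.131 FPKM. Against the gamma chain, Lama4 was 0.479 ± 0.122 times and Lama2 0.410 ± 0.154 times Lamc1, each below Lamc1 in 4 of 4 libraries, while Lamb2 was 1.51 ± 0.334 times Lamc1.

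Among the linkers, Agrn, the heparan sulfate proteoglycan agrin, was highest. It measured 4.06, 4.22, 7.09 and 8.59 FPKM, a mean of 5.99 ± 2.22 (SD, n = 4), with replicates 3 and 4 above replicates 1 and 2, and lay above 1 FPKM (limma, adjusted p = 0.000407). Nid1, nidogen 1, which bridges laminin and collagen IV, measured 2.41, 1.21, 1.74 and 1.45 FPKM. Its call above 1 FPKM (adjusted p = 0.0429) was lost without replicate 1, 3 or 4 (adjusted p = 0.129, 0.108 and 0.087) and with libraries scaled without mitochondrial genes (adjusted p = 0.051). Nid2, its paralogue, measured 1.001, 0.995, 1.83 and 1.09 FPKM. Nid1 was higher in 3 of 4 libraries, by 0.27 ± 0.35, with an exact sign-flip p of 0.25. Hspg2, perlecan, measured 0.234, 0.0619, 0.239 and 0.1004 FPKM and lay below 1 FPKM (adjusted p = 4.63e-05).

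Sparc and Sparcl1 encode secreted collagen-binding proteins, the second also known as hevin and as a product of astrocytes. Sparcl1 measured 662, 766, 603 and 626 FPKM (ENSMUSG00000029309, chromosome 5, 104079111 to 104113733), and Sparc 474, 548, 475 and 453 FPKM (ENSMUSG00000018593, chromosome 11, 55394500 to 55423183). Sparcl1 was higher in 4 of 4 libraries, at a ratio of 1.36 ± 0.0619 (SD, n = 4), and replicate 2 was highest for each. Both are made by several brain cell types. The summed markers of endothelium, pericytes, smooth muscle, astrocytes, neurons, oligodendrocytes and microglia were also highest in replicate 2, but abundant genes weigh most in such sums. Gene by gene, replicate 2 was highest for 7 of 10 neuronal, 6 of 8 oligodendrocyte, 7 of 9 microglial and 5 of 8 smooth muscle markers. For endothelial, pericyte and astrocyte markers it was highest in 4 of 17, 2 of 10 and 2 of 9. The part of these cells in the level of Sparc and Sparcl1 was not tested. Fn1, fibronectin, a ligand of Itga5 and Itgav receptors, measured 3.06, 1.55, 2.03 and 1.94 FPKM, and replicate 1 was highest.

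All 5 adaptors lay above 1 FPKM, beside 47.7% of all genes tested. Ilk, Fermt2 and Tln1 had means of 27.7, 21.9 and 20.5 FPKM, beside 22.2 FPKM for Itgb1. Ilk, integrin-linked kinase, measured 29.3, 31.5, 21 and 28.9 FPKM, but 76.75% of its exon bases lie opposite exons of Taf10 (mean 22.6 FPKM) on the other strand. The strand setting of the libraries is not given in the sources used here, so the value of Ilk is uncertain. Fermt2, kindlin-2, measured 21.7, 23.0, 21.3 and 21.4 FPKM (ENSMUSG00000037712, chromosome 14, 45458795 to 45530118), with a coefficient of variation of 3.52% that 1.85% of genes of like level undercut. Tln1, talin-1, measured 19.9, 21.8, 16.6 and 23.7 FPKM. Fermt2 was 1.08 ± 0.154 (SD, n = 4) times Tln1. Ilk was above Fermt2, and Fermt2 above Tln1, in 3 of 4 libraries each, so these neighbours could not be ordered. Ilk was above Tln1 in every library.

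Tln2, the talin of neurons and muscle, was much lower than Tln1. It measured 1.24, 1.42, 2.21 and 1.71 FPKM, and Tln1 exceeded it by 3.03 ± 0.38 (SD, n = 4) on the log2(FPKM + 1) scale. Its call above 1 FPKM (limma, adjusted p = 0.0406) was lost with any 1 library left out (adjusted p from 0.0512 to 0.122). Vcl, vinculin, measured 3.36, 1.14, 3.07 and 1.49 FPKM, with replicates 1 and 3 at more than double replicates 2 and 4. Its call (adjusted p = 0.0403) was lost without replicate 1, 3 or 4 (adjusted p = 0.126, 0.124 and 0.0558), and 25.5% of its exon bases lie opposite exons of Ap3m1 (mean 9.41 FPKM). In an exact 2-sided sign-flip test of 4 libraries the smallest p is 2 of 16 sign patterns, so none of the 13 pair comparisons can reach 0.05; the 10 pairs of 1 sign in every library are at that smallest value.

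The other genes of the adhesion pathway were taken from 2 lists. Of 25 adhesion machinery genes, 20 lay above 1 FPKM and 1 below, beside 47.7% and 40.1% of all genes tested. The list median was 4.39 FPKM. The highest were Fyn (28.8 ± 3.89), a Src family kinase, Rsu1 (28.8 ± 3.23), which binds the Ilk complex, Actn4 (27.4 ± 2.32), an actin crosslinker, Ptk2b (21.6 ± 5.17), the kinase Pyk2, Sharpin (16.6 ± 1.83), an integrin inhibitor, and Parva (16.2 ± 2.28), alpha-parvin (FPKM ± SD, n = 4). The lowest were Kank2 (1.08), Parvb (0.901) and Fermt1 (0.0685), the kindlin of epithelia. Fermt2 was thus the kindlin with the highest value, as Fermt3, that of blood cells, measured 1.52 ± 0.227 FPKM.

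Of 24 ligands and matrix partners, 13 lay above 1 FPKM and 5 below, beside 47.7% and 40.1% of all genes tested. The list median was 2.35 FPKM. The highest were Mfge8 (93.3 ± 10.5) and Vtn (61.4 ± 9.07), both RGD ligands of alpha v integrins, Cd47 (39.6 ± 4.74), an integrin-associated protein, Spp1 (39.3 ± 7.65), osteopontin, Vcam1 (22.1 ± 2.75), a ligand of Itga4 receptors, and Bcam (12.1 ± 0.421), a Lama5 receptor (FPKM ± SD, n = 4). The lowest were the collagens Col4a4 (0.333), Col15a1 (0.286) and Col4a6 (0.163). Col4a1 and Col4a2, the main collagen IV chains of vessels, measured 1.97 ± 0.725 and 2.06 ± 1.29 FPKM, in the range of Lamc1 and Nid1.

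Against the endothelial markers of the same library, few members stood higher. When each gene was set against the pan-endothelial median within library, 9 members lay above it, 35 lay below and 4 could not be placed (limma, with adjustment over 25206 genes). Among all genes tested 30.6% lay above and 60.7% below, beside 18.75% and 72.9% of members. The 9 were Itgb1, Itgb5, Itgb8, Itgav, Sparc, Sparcl1, Tln1, Ilk and Fermt2. Itga6, Itga3, Lamb2 and Agrn passed in neither direction, with log2 differences of -0.03, -0.32, -0.22 and 0.30. Itga7 (-0.55) and Lamc1 (-0.64) were lower. The fit assigned genes of like level the same variance, as its prior degrees of freedom were infinite, so its p-values are not given. With the list's mean in place of its median, 7 (14.6%) lay above and 38 (79.2%) below, beside 25% and 68.4% of all genes tested. The comparison with all genes depended on the filter. Against the median with genes at 0 kept, 18.4% of members lay above and 73.5% below, beside 16.8% and 78.8% of genes. When genes averaging under 0.1 FPKM were dropped, the shares were 20% and 71.1%, beside 38.3% and 50.9%.

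The libraries differed in ways that many members shared. Of 29 members with a mean of at least 1 FPKM, replicate 1 was highest in 15 (51.7%) and replicate 2 lowest in 13 (44.8%), beside 25.6% and 27.5% of the 13654 genes of that level. Lamb1, Vcl, Lamc1 and Itgav were the members most reduced in replicate 2. Transcript length moved with this pattern: replicate 2 was lowest in 63.4% of 1252 coding genes in the longest length decile, 47.4% of 1313 in the next and 19.7% of 9830 in the other 8 deciles. Among members, it was lowest in 8 of 16 in the 2 longest deciles and in 5 of 13 in the others. Of the marker genes, replicate 2 was lowest for 1 of 17 pan-endothelial and 0 of 10 neuronal markers, and for 8 of 8 choroid plexus markers. It was lowest for 3 of 10 pericyte, 3 of 8 smooth muscle and 3 of 9 fibroblast markers. The part of transcript length or cell makeup in these differences was not tested.

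**Figure D3:**
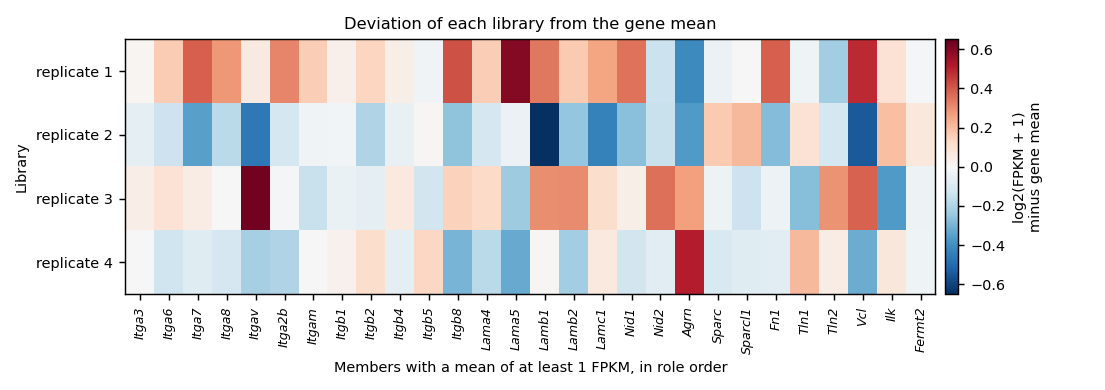
Deviation of each library from the gene's mean on the log2(FPKM + 1) scale, for the members reported here with a mean of at least 1 FPKM, in role order. Replicate 2 is low for Lamb1, Lamc1, Vcl and Itgav, replicate 1 is high for Lama5 and Vcl, and Itgb1, Fermt2 and Itga3 are nearly level.

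Members had long transcripts: 27 of 48 fell in the 2 longest deciles of coding genes, of at least 5112 bases, and 16 in the longest. Median level falls over those deciles, to 3.39 and 2.48 FPKM, from 5.18 FPKM in the sixth. Hspg2, with the longest transcript of the set (14187 bases), measured 0.159 FPKM, and 7.50% of coding genes in its decile were lower. In the same decile Tln1 exceeded 95.4% of genes, Itgb8 83.2%, Itgav 81.8% and Agrn 77.4%, and Lamc1 51.2%. Over all 48, 12 members exceeded the median of their own decile. Across the 48 members, Pearson's r of log2(FPKM + 1) with log2 length was -0.46 and Spearman's rho -0.31, and without Sparc and Sparcl1 r was -0.29. Over 16934 coding genes r was -0.14. Genes within these libraries are not independent replicates, and they share depth and library.

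**Figure D4:**
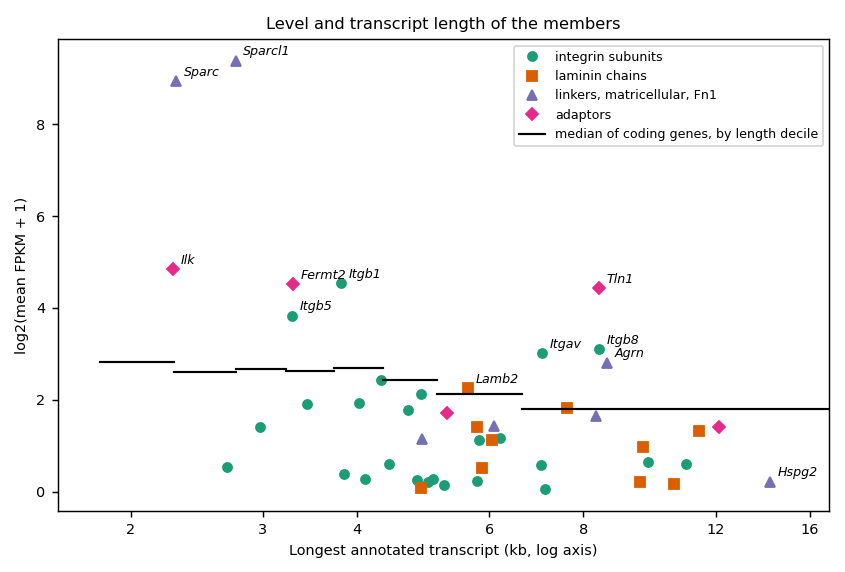
Mean level of the members reported here that were above 0, as log2(FPKM + 1) against the length of the longest annotated transcript (log axis), by role, with bars for the median of coding genes in length deciles 3 to 10, the last drawn to the edge of the plot. Most integrin and laminin genes lie below the bar of their length, and Tln1, Itgb8, Itgav and Agrn lie above it.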

How the data were processed

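The 4 poly(A) libraries form 1 group, numbered from the titles, with columns matched by the library names in the labels. The authors deposited FPKM, and no column was left out (0 of no sample). Tools listed in the submitters' processing notes are StringTie 2.2.1, HISAT2 2.2.1, bcl2fastq 2.20 and SAMtools, and the build is GRCm38; their roles, the annotation release and any filter are not stated there. Low values show no whole-read steps, so depth, intervals and floors are not given, and an exact 0 is described as listed at 0. FPKM sums ranged from 448678 to 482882 per library.

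A pseudocount of 1 was added before taking log2, giving log2(FPKM + 1), which understates differences of low genes. Genes above 0 in any library (25206) entered a 2-sided test in limma (version 3.58.1, R 4.3.3) whose variances followed a trend with level, against 1 FPKM and, within library, against the pan-endothelial median. Adjustment was by Benjamini-Hochberg, with a threshold of 0.05. Only a version of the fit without the trend was run on simulated data, so the fit used here was not tested in that way. Pairs were compared within library by an exact sign-flip test over 16 patterns. Neighbours in an order were called different where the difference had the same sign in 4 libraries and exceeded its SD. Positions, lengths and exon overlaps came from GENCODE M21 (GRCm38), which placed 45137 genes, and promoters from RefSeq (GRCm38.p6). Transcript length is that of the longest annotated transcript. The fixed rule for named genes took all members and the 6 highest and 3 lowest genes of each pathway list. It also allowed the 2 highest of each marker list, of which not all are named here. Other genes of these lists, and the other markers named, were chosen after their values were seen. Marker lists are given by their median. Of the members, 1 is not reported here by name or drawn in the figures, though counts and sums over the set include it. Members, lists and pairs were chosen with earlier results of these data known. Alternatives covered the pseudocount, filter, scaling, level, variance model, reference and each library left out. Figures were drawn with matplotlib 3.10.9.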

Additional observations from a re-analysis of the deposited data

Results flagged for a closer look

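Of the 48 members above 0, 1 held a library that stood apart from the other 3 on the log2(FPKM + 1) scale, beyond the 95% limit of Dixon's test for 4 values. This was Nid2, nidogen 2, in replicate 3, at 1.83 FPKM against 0.995 to 1.09 in the other libraries, where the gap took up 0.865 of the whole range. Chance gives such a flag in about 1 of 20 groups. Of the exon bases of Nid2, 8.45% lie opposite exons of Rtraf (mean 60.1 FPKM).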

How the results depend on the processing

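No paired analysis was possible because the series has 1 group. The 13 pair differences kept their sign under each pseudocount, with libraries rescaled to a sum of 1000000 and with each library left out. With lower pseudocounts, Itga6 against Itga1, Itgav against Itga5, Itgb5 against Itgb3, Itgam against Itgal, Lamb2 against Lamb1, Lamc1 against Lamc3 and Tln1 against Tln2 grew, to 2.92, 3.52, 5.66, 3.95, 1.26, 2.44 and 3.58 at 0.1 and to 3.16, 3.76, 6.38, 5.91, 1.32, 2.73 and 3.65 at 0.01, in that order, since a smaller constant widens differences of low genes. With libraries rescaled to a sum of 1000000, Itga6 against Itga1, Itgav against Itga5, Itgb5 against Itgb3, Itgam against Itgal and Lamc1 against Lamc3 were 2.31, 2.88, 4.42, 2.40 and 1.77. With 1 library left out, members above 1 FPKM numbered 18 to 22 (37.5% to 45.8%), beside 47.4% to 48.1% of all genes tested. Members below it numbered 14 to 18 (29.2% to 37.5%), beside 36.5% to 37.1%. Against the pan-endothelial median 8 to 10 (16.7% to 20.8%) lay above, beside 30.4% to 32% of all genes tested. Those below this median numbered 35 to 36 (72.9% to 75%), beside 58% to 60.1%. Against 2 FPKM 13 members (27.1%) lay above and 23 (47.9%) below, beside 40.4% and 48.5% of all genes. Against 0.5 FPKM 30 (62.5%) lay above and 11 (22.9%) below, beside 53.9% and 30.7%. Members below 1 FPKM numbered 15 (31.2%) and 14 (29.2%) at pseudocounts of 0.1 and 0.01, beside 38.4% and 36.9% of all genes tested. Itga1, Itga4 and Itga9 lost the call at both and Itga5 at 0.01. The rescaling left 10 below 1 FPKM and put Itga1, Itga5, Itga4 and Lama2 on the other side of it, at 0.0579, 0.0609, 0.0842 and 0.622, where only Lama2 of these 4 passed. Under it the calls of Itga9, Itgad, Itgae, Itgb7 and Lamc3 were also lost, and Itga8, Itgb4, Lama4, Lama5, Lamb1 and Nid2 were called above. Without the filter on genes at 0 the calls of Itga1, Itga4, Itga5, Itga9, Lamc3 and Vcl were lost (limma, adjusted p from 0.056 to 0.0889). Without mitochondrial genes the members held 0.319% of summed FPKM in place of 0.285%, and the cause is the smaller sum. Of 573 single values against 1 FPKM, 516 kept their direction and side of the threshold, 40 lost it and 13 gained it. The other 4 reversed direction, all under the rescaling. Depth is unknown, so low members cannot be given a detection limit.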
